A study of Mus musculus with 6 samples.

Results

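Extracellular matrix proteases and their inhibitors were described in single cells of the mouse aortic root and ascending aorta. The 10 genes were chosen by symbol from the 31055 features of the count table and comprised 6 proteases (Mmp2, Mmp3, Mmp14, Adamts1, Adamts4 and Adamts5) and the 4 tissue inhibitors of metalloproteinases (Timp1, Timp2, Timp3 and Timp4). Single-cell RNA was captured from 6 female mice of 16 weeks on a 129SVE background. Of these, 4 were controls, 2 with the genotype Tgfbr1+/+ and 2 with Tgfbr1+/+ together with Wnt2CRE and EGFP-L10a, a ribosomal reporter switched on by a Cre under the Wnt2 promoter to trace cells of the cardiac neural crest. The other 2 were LDS mice (Tgfbr1M318R/+), which carry a missense allele of a TGF-β receptor and model Loeys-Dietz syndrome, an inherited aneurysm disorder. The cells of all mice lie in 1 table, in which a number from 1 to 6 marks the library of each cell. Neither the labels nor the table ties a number to a mouse, so control and LDS mice could not be compared, and levels and ratios are given by library, or pooled over the libraries where so stated, without a p-value.

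Matrix metalloproteinases (MMPs) are zinc enzymes that cut collagens, elastin and other matrix proteins. Most are secreted as inactive proenzymes. Mmp14 is held in the cell membrane, where it activates pro-Mmp2 with the help of Timp2, and Mmp3 (stromelysin) activates several other MMPs. The ADAMTS enzymes Adamts1, Adamts4 and Adamts5 cut proteoglycans such as versican and aggrecan, which accumulate in aneurysmal media. TIMPs bind the active site of metalloproteinases, and Timp3, which stays bound to the matrix, is also the main TIMP acting on ADAMTS enzymes.

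In the annotation (GENCODE M21, mm10), the proteases lie as follows: Mmp2 at chr8:92827291-92853420, Mmp3 at chr9:7445822-7455975, Mmp14 at chr14:54431612-54445364, Adamts1 at chr16:85793827-85803113, Adamts4 at chr1:171250421-171260637 and Adamts5 at chr16:85856173-85901828. The inhibitors lie each on a chromosome of its own, Timp1 at chrX:20870166-20874735, Timp2 at chr11:118301069-118355740, Timp3 at chr10:86300372-86349506 and Timp4 at chr6:115241892-115252205. Adamts1 and Adamts5 are thus near each other on chromosome 16.

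In all, 24972 of 30716 barcodes passed the filters on genes, UMIs (unique molecular identifiers, counts of captured transcripts) and mitochondrial share, with 18218282 to 38105145 UMIs and 1863 to 6395 cells per library and median depths of 5572 to 9838 UMIs per cell. By marker genes, of which each cluster met 4 to 7 of its class, the clusters fell into 13587 fibroblast-like cells, 10268 cells like vascular smooth muscle cells (VSMC-like), 568 endothelial-like and 549 leukocyte-like cells. Levels are given as CPM, the UMIs of a gene scaled to counts per 1e6 UMIs of a class in a library. They count 3′ ends and are not compared between genes. Of the barcode sequences of these cells, 76 occurred in more than 1 library. A subtype of 163 VSMC-like cells with 83.4% marked doublets, 17 VSMC-like cells with cardiomyocyte transcripts, 521 fibroblast-like cells with 42.4% marked doublets and 53 fibroblast-like cells with glial transcripts are called mixed subtypes below, and the comparison within VSMCs, whose calls they change, is given with and without them.

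The proteases Mmp2 and Mmp3 and the inhibitor Timp1 were largely fibroblast transcripts. Between fibroblast-like and VSMC-like cells, 8 of the 10 genes were higher in fibroblasts and Timp4 was lower. A gene is called higher or lower where the median over the 6 libraries of the log2 ratio was at least 1 in size and all libraries had 1 sign. The filter of 10 CPM in at least 1 of the classes left 8731 genes, and 13.7% of them were higher in fibroblasts, 9.25% lower, and 23% either. For all 9 called genes, the lowest library of the higher class lay above the highest library of the other.

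**Figure D1:**
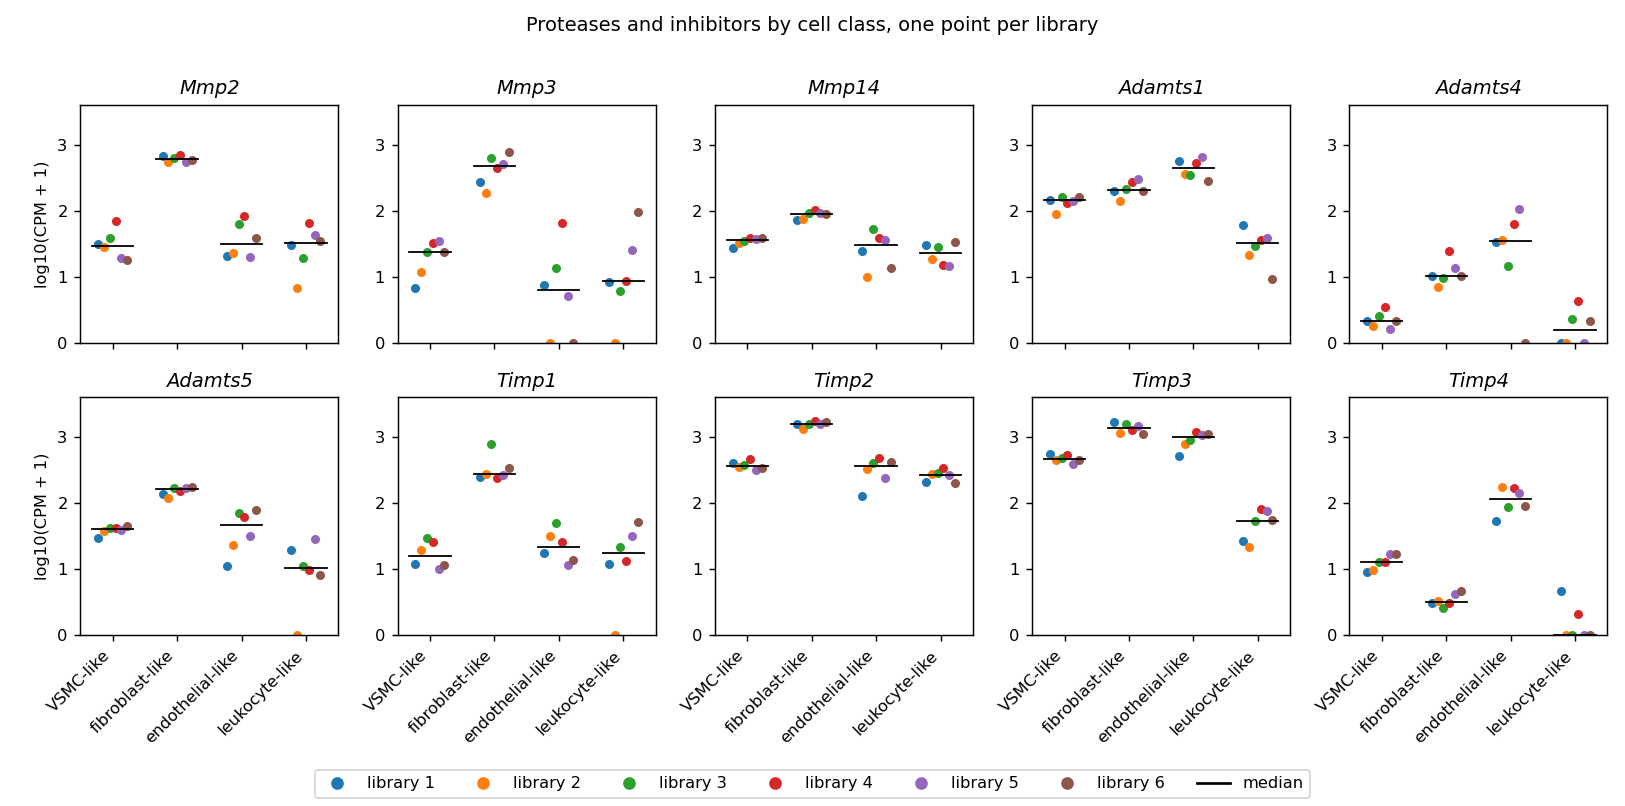
Level of each gene by cell class in log10(CPM + 1), with 1 point per library and a line at the median of the 6 libraries. Fibroblast-like points lie above all VSMC-like points for 8 genes, Timp4 has the opposite order, and the classes overlap for Adamts1.

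Among the MMPs, Mmp2 (gelatinase A) ranged from 539.9 to 710.3 CPM with a median of 604 in fibroblast-like cells and from 16.9 to 68.3 CPM with a median of 28.9 in VSMC-like cells. The log2 ratio was 4.39 (range 3.38 to 5.11). Mmp3 ranged from 184 to 769 CPM with a median of 477 in fibroblasts and from 5.74 to 33.8 CPM with a median of 22.8 in VSMCs, a log2 ratio of 4.42 (range 3.82 to 5.54). Library 6 was the highest and library 2 the lowest for fibroblast Mmp3, and the classes were still far apart in each. Mmp14 differed less between the classes, with 71.9 to 102 CPM with a median of 90.2 in fibroblasts and 26.2 to 38.4 CPM with a median of 35.2 in VSMCs, a log2 ratio of 1.38 (range 1.20 to 1.46). Its libraries were close to each other within each class and fibroblasts were higher in every library.

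Adamts1 was the exception among the proteases. It ranged from 138 to 305 CPM with a median of 208 in fibroblasts and from 89.2 to 162 CPM with a median of 144 in VSMCs, and the classes overlapped. The log2 ratio of 0.55 (range 0.28 to 1.10) had 1 sign in all libraries but did not reach the size for a call. Adamts5 ranged from 118 to 173 CPM with a median of 161 in fibroblasts and from 29 to 44.6 CPM with a median of 39.2 in VSMCs, a log2 ratio of 2.01 (range 1.70 to 2.24). Adamts4 was sparse, with 1429 UMIs in 992 of all cells. Its fibroblast libraries ranged from 6.14 to 23.6 CPM with a median of 9.28 and its VSMC libraries from 0.612 to 2.52 CPM with a median of 1.16, a log2 ratio of 2.95 (range 2.44 to 4.31). Without library 4, the highest, Adamts4 fell under 10 CPM in both classes and was no longer tested.

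The 4 inhibitors differed in where they were found. Timp1, a secreted inhibitor induced in injured tissue, ranged from 242 to 782 CPM with a median of 273 in fibroblasts and from 9.03 to 29.1 CPM with a median of 14.8 in VSMCs, a log2 ratio of 4.63 (range 3.28 to 4.99). Timp2, the partner of Mmp14 in the activation of pro-Mmp2, was present in both, from 1342 to 1760.3 CPM with a median of 1578 in fibroblasts and from 317 to 467 CPM with a median of 362 in VSMCs. Its log2 ratio was 2.03 (range 1.92 to 2.34). Timp3 ranged from 1097 to 1678 CPM with a median of 1362 in fibroblasts and from 396 to 556 CPM with a median of 469 in VSMCs, a log2 ratio of 1.48 (range 1.28 to 1.87). Timp2 and Timp3 were thus lower in smooth muscle but, as given below, detected in most of its cells. Timp4 alone was lower in fibroblasts, from 1.62 to 3.65 CPM with a median of 2.21, against 8.12 to 15.9 CPM with a median of 11.9 in VSMCs, a log2 ratio of -2.20 (range -2.85 to -1.89). Of the 215 fibroblast UMIs of Timp4, 93 lay in the mixed subtype of 521 cells, and without mixed subtypes the fibroblast median was 1.37 CPM and the log2 ratio -3.21 (range -3.71 to -2.20). Timp1, Timp3 and Timp4 overlap the synapsin genes Syn1, Syn3 and Syn2 on the opposite strand, and Timp2 overlaps Cep295nl on the same strand. Whether that overlap changed the counts of Timp2 was not tested.

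Free RNA from lysed cells puts a little of each abundant transcript into every droplet, so levels in VSMC-like cells were read beside leukocyte-like cells, which should lack fibroblast transcripts. Their median depths were 7205 UMIs per cell in VSMC-like, 6120 in fibroblast-like and 5168 in leukocyte-like cells, so shares of cells with a transcript were taken from 3000 UMIs drawn at random from each cell, pooled over libraries, leaving out shallower cells and keeping 9713 VSMC-like, 12359 fibroblast-like and 449 leukocyte-like cells. Without thinning, 14.8% of VSMC-like and 6.92% of leukocyte-like cells had an Mmp2 UMI. After it, Mmp2 was detected in 7.33% (6.82% to 7.87%) of VSMC-like and 5.35% (3.45% to 7.85%) of leukocyte-like cells, with overlapping exact binomial intervals that cover counting error only, against 74.8% of fibroblast-like cells. Mmp3 was detected in 2.69% (2.37% to 3.03%) of VSMC-like cells, no more than the 2.9% (1.55% to 4.9%) of leukocyte-like cells. That share alone does not tell expression from free RNA and is not read as expression. Before thinning, up to 130 Mmp3 UMIs lay in 1 VSMC-like cell. The shares of Timp1 lay close, at 3.65% against 3.12%, and those of Adamts4 were 0.381% against 0.668%. Leaving out marked doublets, the shares in VSMC-like and leukocyte-like cells were 6.44% and 3.97% for Mmp2, 2.51% and 2.98% for Mmp3 and 3.2% and 1.49% for Timp1. Timp3, Adamts1, Adamts5, Mmp14 and Timp4 had higher shares in VSMC-like than in leukocyte-like cells. Timp3 was detected in 70.7% of VSMC-like against 9.58% of leukocyte-like cells. Adamts1 was detected in 26.3% against 4.23%, Adamts5 in 9.83% against 1.11% and Mmp14 in 10.5% against 4.23%. Timp4 was rare in both, in 3.39% of VSMC-like and 0.223% of leukocyte-like cells. Timp2 was detected in 61.8% of VSMC-like cells. For it the leukocyte share of 44.3% was no measure of background, because 1 leukocyte-like cluster, led by C1qb, C1qa and Lyz2, held 297 CPM (95% interval 276 to 318), with a Timp2 UMI in 69% of its 406 cells.

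Levels gave no single order for Mmp2, Mmp3 and Timp1. As a percentage of the fibroblast-like level and pooled over libraries, the leukocyte-like and VSMC-like levels of decorin (Dcn), a proteoglycan of fibroblasts, were 4.74% and 2.58%. Those of Mmp2 were 5.81% and 5.27%, those of Mmp3 6.46% and 4.89%, and those of Timp1 6.24% and 4.26%. These leukocyte-like levels rest on 123, 101 and 82 UMIs and depended on marked doublets. Of the 101 UMIs of Mmp3, 73 lay in a cluster of 39 cells led by S100a9, Clec4e and Il1b. Only 5.13% of those cells held an Mmp3 UMI. The 406 cells led by C1qb, C1qa and Lyz2 had 8.03 CPM of Mmp3. Without doublets, the leukocyte-like level fell to 3.66% for Mmp2, 2.02% for Mmp3, 4.56% for Timp1 and 2.76% for Dcn. With doublets left out of both classes, leukocyte-like and VSMC-like cells had 23 and 25.5 CPM of Mmp2, 9.21 and 18.9 CPM of Mmp3, and 17.8 and 13 CPM of Timp1. By library, doublets included, Mmp3 had a median of 7.59 CPM in leukocyte-like cells, below the 22.8 CPM of VSMC-like cells, and was lower in 4 of 6 libraries, as was Mmp2, with medians of 32.2 and 28.9 CPM. Whether smooth muscle makes these 3 transcripts was not tested. Timp3, in contrast, had 4.12% and 34.3%, and Adamts1 12.4% and 62.1%. The ratio of Mmp2 to Dcn UMIs, which 1 source of free RNA would keep constant, was 0.0435 in fibroblast-like and 0.0532 in leukocyte-like cells. It was 0.0453 in the VSMC-like subtype led by Col8a1, Fst and Ankrd1, but 0.441 in the one led by Rgs5, Prrx2 and Sfrp2 and 0.247 in the one led by Ccdc42, Tes and Mylk4. In the cells led by Ccdc42, Tes and Mylk4 the ratio to Dcn was 0.151 for Mmp3 and 0.175 for Timp1, against 0.0437 and 0.0355 in leukocyte-like cells. In the cells led by Col8a1, Fst and Ankrd1 both ratios were lower than in leukocyte-like cells, at 0.038 for Mmp3 and 0.0246 for Timp1. The cells led by Rgs5, Prrx2 and Sfrp2 had 0.0402 for Mmp3 and 0.0804 for Timp1. The subtypes thus lay on both sides of the leukocyte-like ratios. All VSMC-like cells together had 0.0887 for Mmp2, 0.0607 for Mmp3 and 0.0445 for Timp1. Dcn itself was low, at 80.5 CPM in the cells led by Ccdc42, Tes and Mylk4.

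**Figure D2:**
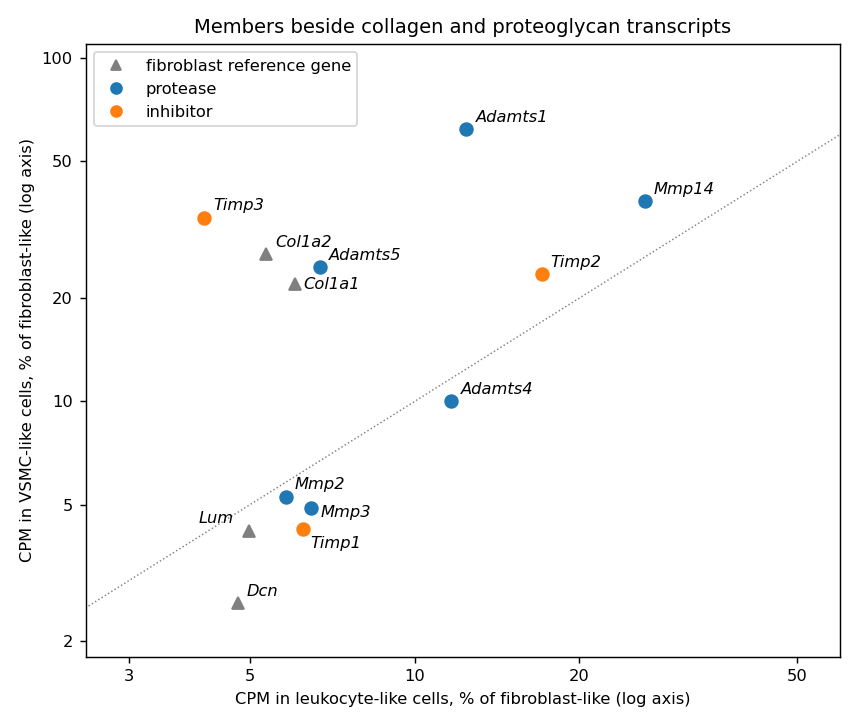
Level in VSMC-like cells against level in leukocyte-like cells, each as a percentage of the level in fibroblast-like cells and on log axes, for 9 of the 10 genes and 4 fibroblast reference genes, pooled over libraries with marked doublets kept. Mmp2, Mmp3 and Timp1 lie below the dotted line of equal levels near Dcn and Lum, and Timp3, Adamts1 and Adamts5 lie above it. The leukocyte-like level of Mmp3 rests on 101 UMIs, of which 73 lay in a cluster of 39 cells. Timp4 is not drawn because its fibroblast-like level is too low for a percentage.

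Endothelial-like cells held the highest levels of Timp4, Adamts1 and Adamts4 by the median over libraries. Over VSMC-like cells, Timp4 and Adamts1 were the 2 genes called higher, against 14.8% of all 9280 genes tested. Timp4 ranged from 53.5 to 177 CPM with a median of 114 and had a log2 ratio of 3.01 (range 2.48 to 4.33). Adamts1 ranged from 281 to 647 CPM with a median of 452, a log2 ratio of 1.99 (range 0.79 to 2.19). Adamts4 was higher in 5 of 6 libraries (median log2 ratio 4.67) and had no UMI in library 6, in which only 10 endothelial-like cells were found. The class joined a pair of clusters, and Timp4 was in 1 of them. In the 334 cells led by Cd36, Rbp7 and Gpihbp1, genes of capillary endothelium, Timp4 stood at 223 CPM (95% interval 202 to 245) and was detected in 50.6% of cells. In the 234 cells led by Ccl21a, Mmrn1 and Nts, genes of lymphatic endothelium, it stood at 2.9 CPM (95% interval 0.79 to 7.43) and was detected in 1.71%. These intervals are exact Poisson intervals and cover counting error only. Adamts1 also leaned to the first cluster, at 631 CPM (95% interval 596 to 668) against 293 CPM (95% interval 265 to 323). Timp3 had the opposite order, at 718 CPM (95% interval 680.0 to 757) against 1400.1 CPM (95% interval 1338 to 1464), as had Timp2, at 177 CPM (95% interval 159 to 197) against 657 CPM (95% interval 615 to 701). In leukocyte-like cells none of the 9 genes tested was higher than in VSMCs, where 19.6% of all genes were, and 4 were lower, Timp3 (log2 ratio -3.12), Timp4 (2 UMIs in all leukocyte-like cells), Adamts1 (-2.01) and Adamts5 (-2.09), where 22% of all genes were lower.

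Smooth muscle was next divided into VSMC1-like and VSMC2-like cells, the subclusters that the study placed towards the ascending aorta and the root. Adamts1 was the gene of the 10 that differed between them with and without the mixed subtypes. The 7698 VSMC1-like and 1967 VSMC2-like cells were the largest pair of subclusters, named by Tes and Ptprz1 against Enpep, Notch3 and Gata4. A subcluster of 603 cells high in Rgs5 was left out. Adamts1 ranged from 144 to 328 CPM with a median of 269 in VSMC2-like cells and from 74.4 to 131 CPM with a median of 114 in VSMC1-like cells. Its log2 ratio was 1.31 (range 0.86 to 1.49) and was positive in every library. Mmp3 had a log2 ratio of 1.40 (range 0.27 to 2.94), Mmp2 of 1.23 (range 0.53 to 2.29) and Timp1 of 1.18 (range 0.83 to 2.07). These were called as well, so that 4 of 9 genes tested were higher, where 3.73% of 8019 genes were higher and 5.62% were called in either direction. VSMC2-like cells held 11.5% marked doublets against 1.48% in VSMC1-like cells, 180 cells of mixed subtypes against 0, and 3686 against 1616 CPM of summed fibroblast markers. Summed markers of pericytes stood at 119 against 60.5 CPM and those of cardiomyocytes at 262 against 6.18 CPM.

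Without the mixed subtypes, only Adamts1 was called, with a log2 ratio of 1.34 (range 0.87 to 1.60), where 3.41% of 7957 genes were higher and 5.74% called in either direction. Mmp2 then had a log2 ratio of 0.48, Timp1 of 0.82 and Mmp3 of 0.90, the last positive in 5 of 6 libraries. The inhibitors Timp2 (-0.11), Timp3 (0.13) and Timp4 (-0.01) were not called in either form, nor were Adamts5 (0.56) and Mmp14 (0.31). Adamts4 was under 10 CPM on both sides and was not tested. VSMC2-like cells also held more UMIs of stress genes induced by dissociation, with a median of 2.35% of a cell's UMIs against 1.14%. In the cells at or below the median of that share, the log2 ratio of Adamts1 was 0.94 and it was no longer called.

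**Figure D3:**
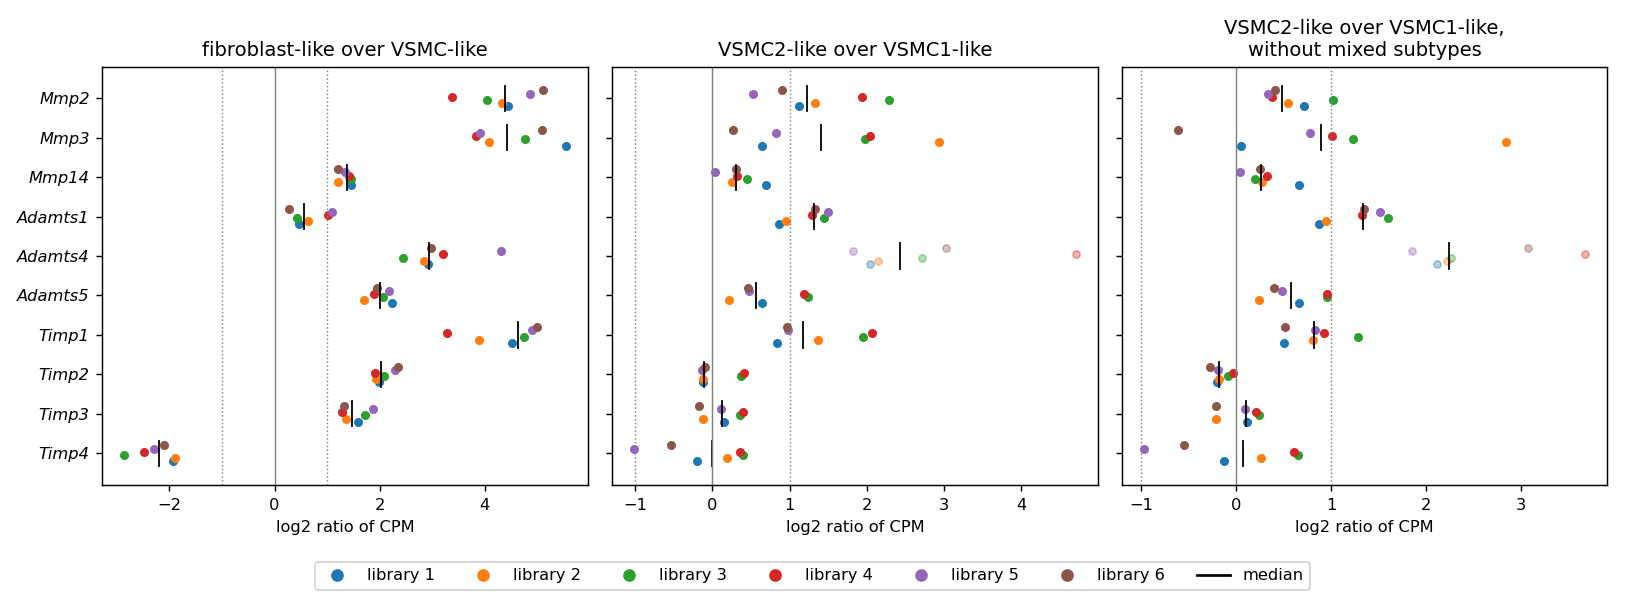
Log2 ratio of CPM by library for fibroblast-like over VSMC-like cells and for VSMC2-like over VSMC1-like cells with and without mixed subtypes. Points are libraries, black lines their medians, dotted lines a log2 ratio of 1 in size, and pale points a gene under the filter of 10 CPM. Adamts1 holds its place without the mixed subtypes, while the medians of Mmp2, Mmp3 and Timp1 move below 1.

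At a finer division, 9 VSMC-like subtypes could be compared with the rest of their class, each named by its 3 leading genes. Of 81 gene and subtype values tested, 3 were called higher and 10 lower, where 2.86% of all 71964 gene values were called (0.894% to 10.6% by subtype). The 568 cells led by Olfr558, Pgam2 and Rasd1 held the most calls, also among all genes (10.6% of those tested). Adamts1 ranged there from 229 to 549 CPM with a median of 457, a log2 ratio of 1.76 (range 1.10 to 2.10), and Timp4 from 16 to 32.7 CPM with a median of 25.3, a log2 ratio of 1.20 (range 0.02 to 2.19). Mmp2 (-2.57), Mmp3 (-2.49) and Timp2 (-1.07) were lower, the first on 25 and Mmp3 on 27 UMIs in these cells. The same cells held a median of 3.43% dissociation genes and 637.7 CPM of summed fibroblast markers, the lowest of the 9. In the 2037 cells led by the immediate early genes Fos, Fosb and Socs3, with 3.07% dissociation genes, Adamts1 had a log2 ratio of 0.14 and was not called. The highest share, 3.64%, was in the 893 cells led by Hspa1b, Hspa1a and Gm26825, where none of the 10 genes was called higher. A missing call is no sign of equal levels, because ratios under the size for a call are not counted. Whether this share goes with Adamts1 among the subtypes was not tested. Adamts1 was lower in the cells led by Ccdc42, Tes and Mylk4 (-1.29) and by Igfbp2, Des and Tnnt2 (-1.10). Timp4 was lower in those led by Col8a1, Fst and Ankrd1 (-1.80). Mmp3 was higher in those led by the antigen presentation genes Cd74, H2-Aa and H2-Eb1 (1.92), which also held 3873 CPM of fibroblast markers, the highest of the 9.

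Among 11 fibroblast-like subtypes, Adamts5 varied most. Of 100 gene and subtype values tested, 2 were called higher and 15 lower, where 5.62% of all 93233 gene values were called (2.19% to 10.9% by subtype). Of the lower values, Mmp2 (-1.05) and Adamts4 (-1.01) lay in the mixed subtype of 521 cells, led by Myh11, Cnn1 and Acta2. In the 1595 cells led by Emilin2, Smpd3 and Basp1, where 8.48% of all genes were called, Adamts5 ranged from 345 to 604 CPM with a median of 512, a log2 ratio of 2.12 (range 1.90 to 2.38). In the 806 cells led by Cd74, H2-Eb1 and H2-Aa (10.9% of all genes called) it had a median of 13.9 CPM, a log2 ratio of -3.46 (range -4.31 to -1.86). It was also lower in cells led by Mia, Tfap2b and Prss12 (-2.31), Igfbp5, Pthlh and Enpep (-1.30), Spp1, Chad and Cilp2 (-1.27) and Cytl1, Cst6 and Gm26870 (-1.06). Adamts1 was higher in the 1820 cells led by Ccl7, Has1 and Ptx3, from 249 to 523 CPM with a median of 386 (log2 ratio 1.01), where 3.75% of all genes were called. Those cells express chemokine genes and held 2.99% dissociation genes. The cells led by Cd74, H2-Eb1 and H2-Aa were low in several genes at once, with log2 ratios of -1.40 for Timp2, -1.23 for Adamts1 and -1.18 for Mmp3, while Timp3 had a ratio of 0.26 and was not called. Timp2 had its highest level in the largest subtype, the 3739 cells led by Cpxm2, Cpz and Colec11, from 1813 to 2716 CPM with a median of 2384, without reaching a call (0.84).

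**Figure D4:**
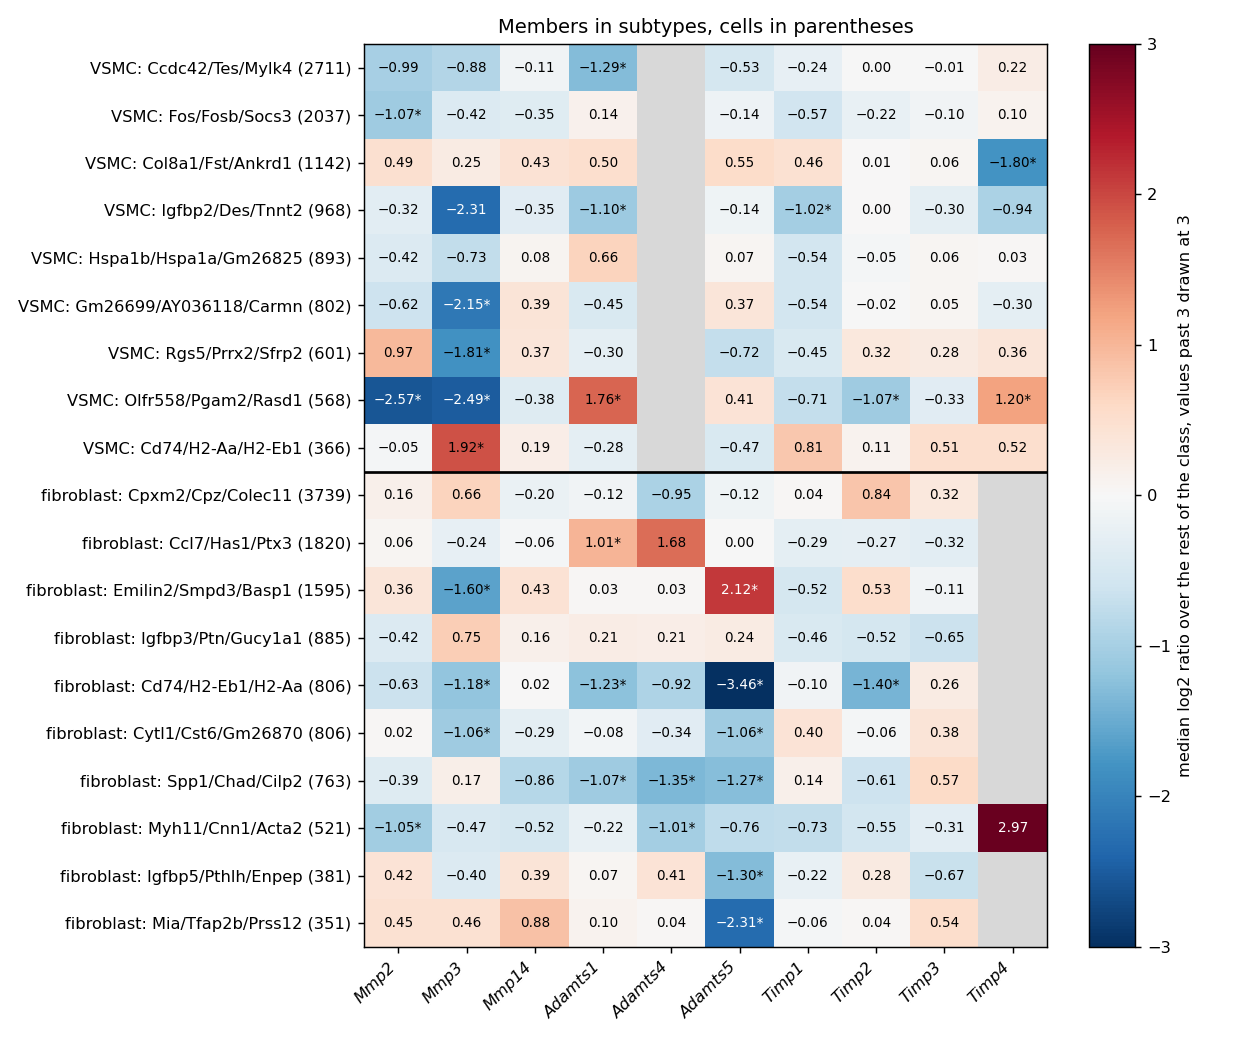
Median log2 ratio of CPM of each gene (columns) in the 9 VSMC-like and 10 of the 11 fibroblast-like subtypes (rows, with cell numbers) over the rest of its class. Asterisks mark called values and grey squares genes under 10 CPM. Adamts1 is high in the VSMC-like cells led by Olfr558, and Adamts5 spans -3.46 to 2.12 among fibroblast-like subtypes.

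Mmp3 was concentrated in few fibroblasts. The 5% of fibroblast-like cells with the most Mmp3 UMIs held a median of 74.6% of its UMIs over libraries (range 64% to 80.1%), where the median of all genes with at least 100 CPM was 21.3%. The share was 39.3% for Timp1, 36.2% for Adamts5, 30.1% for Adamts1 and 24.7% for Timp3. It was lower for Mmp2 (18.6%) and Timp2 (17.4%), which lay under that median. Timp4 and Adamts4 had too few UMIs for this measure. Cells with at least 20 Mmp3 UMIs made up 2.49% to 9.67% of fibroblast-like cells in a library and held 62% to 82.3% of its UMIs, with up to 543 in 1 cell. Pooled over all libraries, these 621 cells were also higher in Lcn2, Fmod, Chil1, Cpz and Sfrp4 than the other fibroblast-like cells. For Lcn2 (lipocalin 2) the pooled levels were 133 against 19 CPM, 5.77-fold, which includes differences between libraries. In library 3 alone, 208 such cells held 369 CPM of Lcn2 and its other fibroblast-like cells 76.6 CPM, 4.59-fold. Of the other genes named, Chil1 was also among the leading genes in that library. For Timp1, library 3 stood apart. It had 135 cells with at least 20 UMIs, against 4 to 18 in the other libraries.

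The libraries differed in these genes by the following amounts. The highest library was at least 2-fold above the lowest for 7 gene and class values. In VSMC-like cells these were Mmp3 (5.85-fold), Mmp2 (4.03-fold) and Timp1 (3.22-fold), where 9.78% of all genes reached that size. The summed fibroblast markers in VSMC-like cells ranged from 1345 CPM in library 5 to 3097 CPM in library 4. Library 4 was also the highest for VSMC Mmp2, while Mmp3 was highest in library 5 and Timp1 in library 3. The part of fibroblast transcripts in these values was not tested. In fibroblast-like cells they were Mmp3 (4.17-fold), Adamts4 (3.82-fold), Timp1 (3.24-fold) and Adamts1 (2.2-fold), where 12.9% of all genes did. Summed dissociation genes in fibroblast-like cells ranged from 19177 CPM in library 2 to 32416 CPM in library 5. Adamts1 was likewise lowest in library 2 and highest in library 5. Mmp3 and Adamts4 were also lowest in library 2, but Mmp3, Adamts4 and Timp1 were highest in libraries 6, 4 and 3. The part of dissociation genes was not tested. Timp2, Timp3, Mmp14 and Adamts5 stayed under 2-fold in both classes. Genotype, digestion time and preparation day cannot be told apart in these differences.

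Since tissue was digested for 30 minutes or 1 hour, each class was also divided within every library at the median share of UMIs from 23 dissociation genes, which include none of the 10. Adamts1 was higher in VSMC-like cells above the median share, at a median of 203 CPM against 75.6 CPM below it. The log2 ratio was 1.43 (range 0.88 to 1.83), and it was the only gene of the 10 called, where 1.64% of 7903 genes were higher. In fibroblast-like cells Adamts1 stood at 265 against 153 CPM, higher in 6 of 6 libraries but with a log2 ratio of 0.79 not called, where 0.991% of 8275 genes were. Timp2 (-0.36) and Adamts5 (-0.35) had lower values in 6 of 6 fibroblast libraries, also without a call. For scale, Fos, which is on the list, had log2 ratios of 3.46 and 1.55 in the 2 classes.

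**Figure D5:**
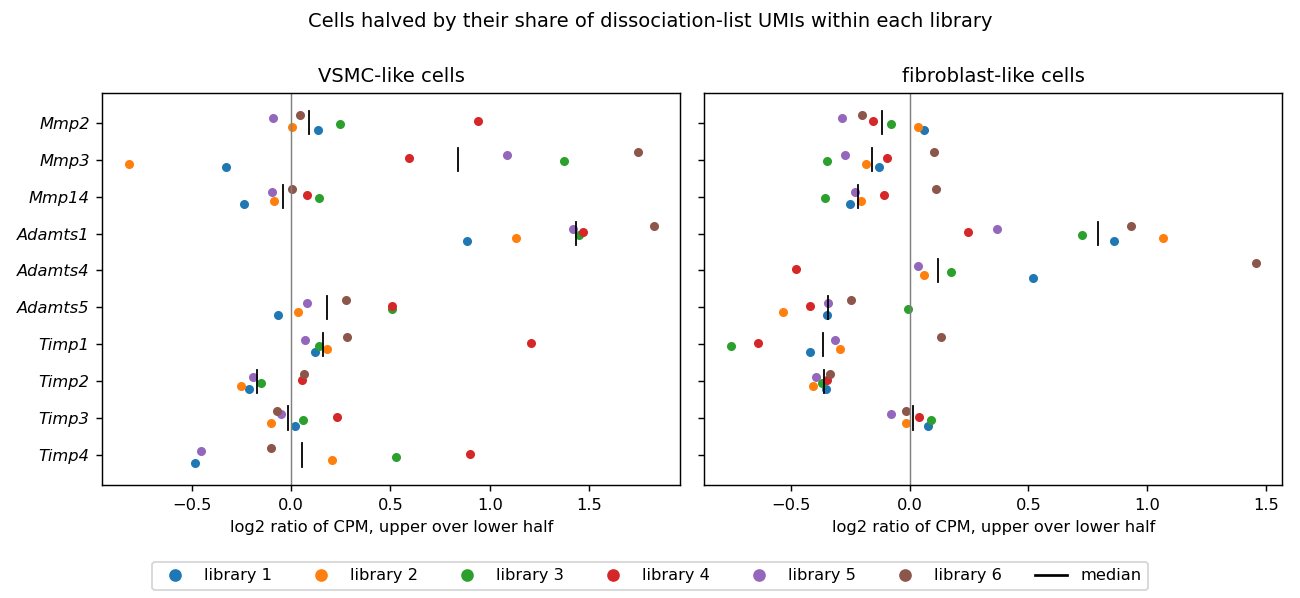
Log2 ratio of CPM of each gene in cells above over cells below the median dissociation share of their library and class, with 1 point per library and black lines at the medians. Adamts1 is to the right of 0 in every library of both classes.

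RefSeq promoter windows (GRCm38.p6) matched 7 of the 10 genes, not Mmp2, Adamts4 and Adamts5. Mmp3 was held by few fibroblasts, Adamts1 was higher in VSMC-like cells above the median dissociation share, and Timp4 was the inhibitor low in fibroblasts. The windows of these genes are shown as the 250 bases before the start, 5′ to 3′. Capitals mark TGANTCA, the site of AP-1 (the Fos and Jun factors), and the TATA box TATAAA, each searched on both strands. They lie at chr9:7445572-7445821 (+ strand), chr16:85803114-85803363 (- strand) and chr6:115252206-115252455 (- strand).
Mmp3: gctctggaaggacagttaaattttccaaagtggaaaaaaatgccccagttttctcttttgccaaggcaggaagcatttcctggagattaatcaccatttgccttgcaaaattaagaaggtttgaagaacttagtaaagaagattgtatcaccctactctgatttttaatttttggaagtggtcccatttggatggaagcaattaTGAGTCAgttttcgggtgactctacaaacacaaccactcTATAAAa
Adamts1: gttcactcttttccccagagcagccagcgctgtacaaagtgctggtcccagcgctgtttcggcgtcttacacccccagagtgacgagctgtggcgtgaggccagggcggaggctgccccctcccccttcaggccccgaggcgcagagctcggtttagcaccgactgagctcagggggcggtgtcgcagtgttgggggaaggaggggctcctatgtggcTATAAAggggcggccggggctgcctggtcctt
Timp4: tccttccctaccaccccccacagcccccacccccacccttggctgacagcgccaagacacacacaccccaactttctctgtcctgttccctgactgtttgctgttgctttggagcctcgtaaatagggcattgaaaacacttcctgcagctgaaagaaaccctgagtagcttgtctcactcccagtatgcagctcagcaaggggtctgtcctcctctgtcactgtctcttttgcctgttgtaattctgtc
The Mmp3 window held TGAGTCA at -46 to -40 and TATAAA at -7 to -2 from the annotated start. These distances depend on where the annotation sets the start, which was not tested. Adamts1 held TATAAA at -32 to -27 and no TGANTCA, and Timp4 held neither. Of all 32851 promoter windows of this length, 6.75% held TGANTCA and 12.4% TATAAA. A match describes the letters of the window and shows no binding.

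Summed over the genes, inhibitor UMIs per protease UMI describe the balance of captured transcripts, which is comparable between cells but not a ratio of proteins. It ranged from 2.74 to 4.24 with a median of 3.15 in VSMC-like cells and from 1.73 to 2.62 with a median of 2.15 in fibroblast-like cells. All VSMC-like libraries lay above all fibroblast-like libraries. Within smooth muscle it was 3.2 to 5.1 (median 4.03) in VSMC1-like and 1.54 to 2.61 (median 2.02) in VSMC2-like cells, again without overlap. The lowest VSMC-like subtype was the one led by Olfr558, Pgam2 and Rasd1, at 0.844 to 2.1 (median 1.16), where Adamts1 was highest. The values of VSMC1-like and VSMC2-like cells include the mixed subtypes. Adamts1 held 4040 of the 7409 protease UMIs of VSMC2-like cells and 6692 of the 13027 of VSMC1-like cells. The median dissociation share was 2.35% in VSMC2-like and 1.14% in VSMC1-like cells, and its part in these values was not tested.

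Transcripts of 2 of the genes were also looked for in the same fibroblast-like cells, thinned to 3000 UMIs, for 5 pairs. Timp2 was detected in a median of 95.1% of cells with Mmp2 and 91.2% of those without, and was higher with Mmp2 in 6 of 6 libraries. Timp1 was detected in 44.8% of cells with Mmp3 and 38.8% without, also in 6 of 6, as was Adamts4 with Adamts1, at 3.84% and 2.11%. The other pairs had no common sign. Timp2 was higher with Mmp14 in 2 of 6 libraries, with a median difference of -0.54 percentage points, and Timp3 with Adamts5 in 4 of 6. No rate was taken for other pairs of genes, so a common sign is not read as particular to these pairs. The cells joined all fibroblast-like subtypes, mixed ones included, and the part of the subtypes in these differences was not tested.

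In a wider list of 91 proteases, inhibitors and related matrix genes in the table, which contains the 10, 55 were tested between fibroblast-like and VSMC-like cells. Of these, 32 were higher in fibroblasts and 6 lower, where 13.7% and 9.25% of all genes were, and their median log2 ratio was 1.48 against 0.02 for all genes. The highest outside the 10 were Adamtsl2 (6.29), Mmp27 (6.12) and Mmp19 (5.14), and the lowest were Mmp17 (-3.57), a membrane-anchored MMP, Serpine2 (-2.12), an inhibitor of thrombin and plasminogen activators, and Adam33 (-1.93). Between VSMC2-like and VSMC1-like cells, 48 were tested, 9 were higher and 4 lower, where 3.73% and 1.9% of all genes were, with a median of -0.06 against -0.05 for all genes. The highest outside the 10 were Adamtsl1 (4.25), Serpinf1 (2.42) and Pcolce (1.97), and the lowest Htra3 (-1.63), versican (Vcan, -1.51), a substrate of the ADAMTS enzymes, and Plaur (-1.14). Without the mixed subtypes, 5 were higher and 4 lower, where 3.41% and 2.34% of all genes were, and these 6 genes had log2 ratios of 4.08, 1.81 and 1.75 and of -2.07, -1.94 and -1.40.

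The genes whose levels were most like each of the 10 were found over 130 sums of subtypes by library, which share libraries and cell classes, so that the correlations describe these sums only. Mmp2 was most like the matrix gene Fbln1 (Pearson r = 0.96), Pdgfra and Serpinf1, and Timp1 most like Dcn (0.92), Lum and Mmp2. Timp2 was most like Ctsl (0.94), Lama2 and Serping1, and Timp3 most like Ppic (0.88), Nfib and Wwtr1. Timp4 was most like Utrn (0.76), Cav2 and Cav1, Adamts1 most like Dlc1 (0.81), Osmr and Pear1, and Adamts4 most like Meox2 (0.82), Tfpi and Mest. Adamts5 was most like the complement genes C1s1 (0.79) and C1ra and the imprinted gene Peg3, Mmp3 like Pcolce (0.86), Serpinf1 and Adamtsl2, and Mmp14 like Glis2 (0.83), Pdgfra and Mmp2.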

How the data were processed

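Aortic tissue was digested with collagenase II and elastase, and living nucleated cells (DyeCycle Violet positive, propidium iodide negative) were sorted and captured with the 10x Genomics 3′ v3 kit, 1 library per mouse, on several days. The authors deposited 1 matrix of raw UMI counts, aligned to mm10 with Cell Ranger (version 6 in the submitters' processing notes, 4.0.0 in the file header). It holds no normalized values, and 0 per-sample columns were left unused.

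Cells with over 1000 and under 5000 genes, over 1500 and under 25000 UMIs and under 20% mitochondrial UMIs were kept. They were clustered with Seurat 5.3.0 in R 4.3.3 after sctransform 0.4.2 (objects of SeuratObject 5.2.0) at a resolution of 0.25, and of 0.3 for subtypes, leaving the protease genes out of the variable features. Classes were named by markers. Doublets were marked by library with Scrublet (scanpy 1.11.5, Python 3.11.15). In libraries where it marked under 0.5%, the 5% of highest scores were taken, and marked cells were kept unless stated. No resolution gave exactly 2 VSMC subclusters of at least 5% of cells. At 0.05 there were 3, and the largest pair became VSMC1-like and VSMC2-like.

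UMIs were summed by group and library. Log2 ratios used a prior of 0.5 UMIs and genes with at least 10 CPM in either group, and subtypes needed 10 cells in at least 4 libraries. The ratio calculation was tested on simulated data with log2 ratios of 2 and 3 in size in either direction, of which 100% were recovered. Ratios near the size for a call were not simulated. No p-value was computed, because libraries could not be assigned to mice and cells are not replicates. Intervals are 95% exact intervals. Besides the 10 genes, the text names the 3 highest and 3 lowest list genes with 1 sign in all libraries and the 3 genes most alike. Genes leading high cells, clusters and subtypes were named after their values were seen. The remaining fibroblast-like subtype is not shown here. The genes, lists and tests were chosen with earlier results of these data known.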

Additional observations from a re-analysis of the deposited data

Results flagged for a closer look

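In fibroblast-like cells, Timp1 stood at 782 CPM in library 3 and at 242 to 339 CPM in the other 5 libraries. The 135 cells of library 3 with at least 20 Timp1 UMIs had a median of 11613 UMIs, against 6161 in its other fibroblast-like cells, and 3.7% against 4.75% marked doublets. They were also higher in Aldh1a3 (8.57-fold) and Ttc9 (8.56-fold).

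Adamts4 in fibroblast-like cells stood at 23.6 CPM in library 4 and at 6.14 to 12.7 CPM in the other libraries. In that library the cells led by Ccl7, Has1 and Ptx3 held 88.4 CPM. These were the 2 values that stood apart among 24 sets of 6 libraries examined. Chance alone marks about 1 set in 20 where all libraries are of 1 kind, but these come from mice of different genotypes. Whether genotype, digestion time or preparation day goes with either library was not tested.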

How the results depend on the processing

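No paired analysis was possible because no test was made and the table carries no replicate number of the labels. Each ratio was formed within a library, between its own cells. Between fibroblast-like and VSMC-like cells, 9 genes were called and 8 to 9 with 1 library left out, and all 150 values of the 10 genes under 15 alternatives kept their direction. VSMC2-like over VSMC1-like was less stable. The 4 genes called became 2 to 4 with 1 library left out. They were 2 (Mmp2 and Adamts1) without library 2, 3 or 4 and with a minimum of 50 CPM. They were 1 (Adamts1) without marked doublets, with clusters made without integration and, in an alternative chosen after seeing the data, without mixed subtypes. Among cells at or below the median dissociation share, 1 was called (Adamts5). Clusters made without integration turned Mmp2 to -0.94 and Timp1 to -0.37. The causes were not tested. The log2 ratio of Adamts1 ranged from 0.94 to 1.34 over 16 alternatives. With 1 library left out, genes called in at least 1 subtype numbered 6 to 6 in VSMC-like (6 with all) and 5 to 7 in fibroblast-like cells (6 with all), and gene and class values at least 2-fold apart between libraries numbered 6 to 7 (7 with all). Inhibitor UMIs per protease UMI ranged from 3.03 to 3.27 in VSMC-like, 2.02 to 2.28 in fibroblast-like, 3.78 to 4.27 in VSMC1-like and 1.83 to 2.2 in VSMC2-like cells. Without thinning, the detection difference of Timp2 by Mmp14 became 1.02 and that of Timp1 by Mmp3 8.04 percentage points. Timp4 and Adamts4 rest on 1638 and 1429 UMIs, the fewest of the 10 genes.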
